A study of Mus musculus with 8 samples.

Results

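The genes of oxidative phosphorylation were followed in 8 RNA-seq libraries of mouse neutrophils, 2 for each of 4 groups. Members were the protein-coding genes whose symbol begins with Nduf (subunits a, b, c, s and v, without the Ndufaf assembly factors), Sdha to Sdhd, Uqcr, Cox4 to Cox8, Atp5 or mt-. The rule found 98 genes among 49315 gene identifiers. Of these, 85 are encoded in the nucleus (38 of complex I, 4 of complex II, 8 of complex III, 18 of complex IV and 17 of complex V) and 13 in the mitochondrial genome (7, 0, 1, 3 and 2). Complexes were assigned by symbol, so Ndufa4 is counted with complex I although it is now known as a subunit of complex IV, and Atp5s, a coupling factor outside the enzyme's core, is counted with complex V. Cyc1, a subunit of complex III, lies outside the rule and is given with the electron carriers.

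All mice were C57BL/6, an inbred laboratory strain, and 2 months old. Neutrophils were taken from the peritoneal cavity after elicitation with casein and separated into low-density and high-density cells. The mice were wild type or deficient in the histamine H2 receptor (H2R), and the labels give neither the deleted part nor the kind of allele. The 4 groups were wild-type high density (libraries 2 and 4), wild-type low density (libraries 2 and 4), H2R-deficient high density (libraries 1 and 2) and H2R-deficient low density (libraries 1 and 2). Whether each library is a separate animal is unstated. The tests therefore weigh differences against the spread between libraries, and that spread may be technical.

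Total counts were 19862716 to 24199215 per library. Hrh2, the targeted gene, held 2003 and 700 counts in wild-type and 599 and 275 in H2R-deficient high-density libraries. At low density it held 556 and 830 counts in wild-type and 435 and 215 in H2R-deficient libraries. The genotypes thus did not overlap within either density. Pooled over both densities, their ranges overlapped in raw counts and over the scaled library sizes used for single genes below. They did not overlap after scaling to total counts. Neither genotype difference was called (log2 fold change -1.60 ± 0.55 (SE) at high and -1.48 ± 0.55 at low density, edgeR adjusted p = 0.192 and 0.196). All 18 markers of mature neutrophils were detected, with summed levels of 66555 to 68821 CPM (counts scaled to a fixed library total) of all gene counts in high-density, 50745 and 62163 in wild-type low-density, and 38318 and 47309 in H2R-deficient low-density libraries. The 12 B cell markers summed to 85.4 to 117 CPM in high-density, 1485 and 535 in wild-type low-density and 3195 and 3146 in H2R-deficient low-density libraries. The 10 dendritic cell markers summed to 82.5 to 133, then 676 and 346, then 766 and 1003 CPM in the same order, and the 8 markers of dividing cells to 53.6 to 79.5, 214 and 149, and 375 and 238 CPM. Erythroid markers (7) summed to 21.6 to 183 CPM at high and 0.165 to 1.66 CPM at low density, and the 8 NK cell markers to 0.778 to 1.62 and 12.9 to 22.5 CPM. The 10 immature neutrophil markers summed to 322 and 861 CPM in wild-type high-density and 944 and 1697.5 CPM in wild-type low-density libraries. In H2R-deficient libraries they summed to 1020 and 1526 CPM at high and 1071 and 1691.5 CPM at low density. No list had a marker at 0 in every library.

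Oxidative phosphorylation is carried out in the inner mitochondrial membrane. Complex I takes electrons from NADH and complex II from succinate, and both pass them to ubiquinone. Complex III passes them on to cytochrome c and complex IV to oxygen. Complexes I, III and IV pump protons, and complex V, the ATP synthase, uses the proton gradient to make ATP. Complex II is built from nuclear genes alone, while the other complexes combine nuclear subunits with a few encoded in mitochondrial DNA. Neutrophils are known for a reliance on glycolysis and for few mitochondria, and their precursors hold more.

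Oxidative phosphorylation transcripts made up a small part of every library. The 85 nuclear genes together took 0.125% and 0.138% of all gene counts in the wild-type high-density libraries 2 and 4, and 0.118% and 0.110% in the H2R-deficient high-density libraries 1 and 2. They took 0.202% and 0.186% in the wild-type and 0.275% and 0.269% in the H2R-deficient low-density libraries. All 4 low-density libraries thus lay above all 4 high-density libraries, and the H2R-deficient low-density pair lay highest. The 13 mitochondrially encoded genes took 0.338% and 0.244% in wild-type high-density, 0.384% and 0.282% in wild-type low-density, and 0.309% and 0.158% in H2R-deficient high-density libraries. These 3 groups overlapped, while the H2R-deficient low-density libraries lay above them at 0.586% and 0.585%. The ratio of mitochondrially encoded to nuclear counts was 1.43 to 2.71 and overlapped between groups. In bulk RNA, fewer cells of a type and less RNA per cell cannot be told apart.

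**Figure D1:**
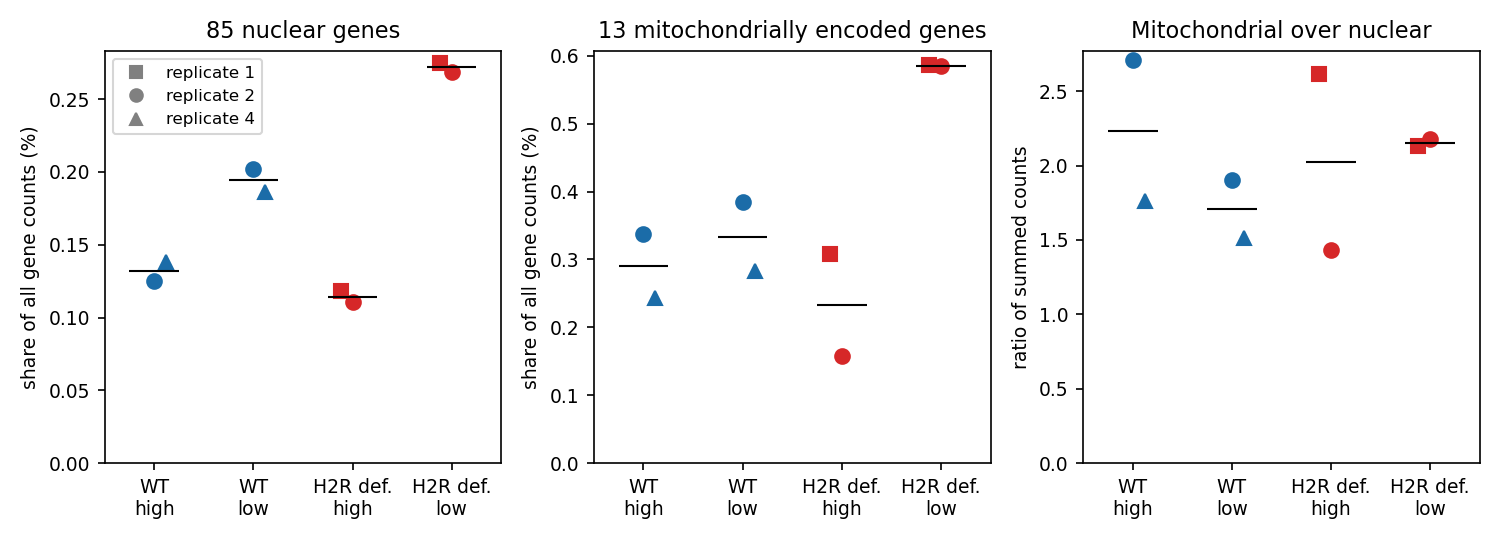
Share of all gene counts (%) held by the 85 nuclear genes (left) and the 13 mitochondrially encoded genes (middle), and the ratio of their summed counts (right), for each library (point, shape by library number) with the mean of the 2 libraries of a group (bar). The H2R-deficient low-density libraries lie highest in the nuclear share at 0.275% and 0.269%.

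Shares of all counts depend on what else the libraries hold. Scaling by trimmed mean of M-values (TMM) gave factors of 0.742 to 0.808 in high-density and 1.11 to 1.49 in low-density libraries. The nuclear genes then summed to 1607 and 1715 CPM in wild-type high-density and 1625 and 1674.5 CPM in wild-type low-density libraries, which overlapped. In H2R-deficient libraries they summed to 1529 and 1488 CPM at high and 1843 and 2000 CPM at low density. Mitochondrial sums of H2R-deficient low-density libraries were 3929 and 4356 CPM. These overlapped with wild-type (4352.5 and 3021) and H2R-deficient (3999 and 2128) high-density libraries. With TMM the median log2 fold change of all 14909 genes tested, low against high density, was 0.10 for both genotypes. With total counts only it was 0.67 for wild-type and 1.0 for H2R-deficient cells. Fold changes below are after TMM scaling, CPM values of single genes are over TMM-scaled library sizes, and a gene was called at an adjusted p under 0.05 over all genes tested. The filter on low counts kept 79 of the 85 nuclear and 10 of the 13 mitochondrial genes. Left out were Cox6a2, Cox6b2, Cox7b2, Cox8b, Cox8c, Ndufa4l2, mt-Atp6, mt-Atp8 and mt-Co2. Cox7b2 and Cox8c held 0 counts in every library, where 3 counts would be 0.124 to 0.151 CPM of all gene counts, taken as the upper limit for counting error only.

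In H2R-deficient cells, low density went with higher levels of many nuclear subunits, most often of complexes I, III and V. Of the 85 nuclear genes, 41 rose and 1 fell, with a median log2 fold change of 0.53 over the 79 tested. Of all genes tested, 30.0% were called higher and 23.9% lower in this comparison, with a median of 0.10. By complex, 24 of 38 genes of complex I rose (37 tested, median 0.80). So did 1 of 4 of complex II (0.29) and 4 of 8 of complex III (0.59). In complex IV 2 of 18 rose (13 tested, median 0.13), and in complex V 10 of 17 (0.59). The single fall was in complex IV. With total counts only, 75 nuclear genes were called higher and 0 lower, against 51.6% and 2.60% of all genes. The nuclear median then was 1.43, as far above that of all genes (0.43) as with TMM (0.44). In the same comparison after TMM scaling, 10 of 12 B cell, 6 of 10 dendritic cell and 8 of 8 dividing-cell markers rose. After that scaling 18 of 18 mature neutrophil and 1 of 10 dendritic cell markers fell. In raw counts Ccrl2 held 36624 and 27481 at high and 52234 and 30945 at low density, and Clec4e 69215 and 65780 against 80500 and 66629. The summed level of the 18 over all gene counts was lower at low density, as given above. Of 10 immature neutrophil markers 6 were tested and 0 called (median -0.55). Also, 6 of 8 NK cell and 6 of 11 macrophage markers rose, and 3 of 11 macrophage, 4 of 6 mast cell, 5 of 7 erythroid and 3 of 7 eosinophil markers fell, with 1 eosinophil marker higher and 1 of 10 T cell markers lower. Their part in the result was not tested.

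**Figure D2:**
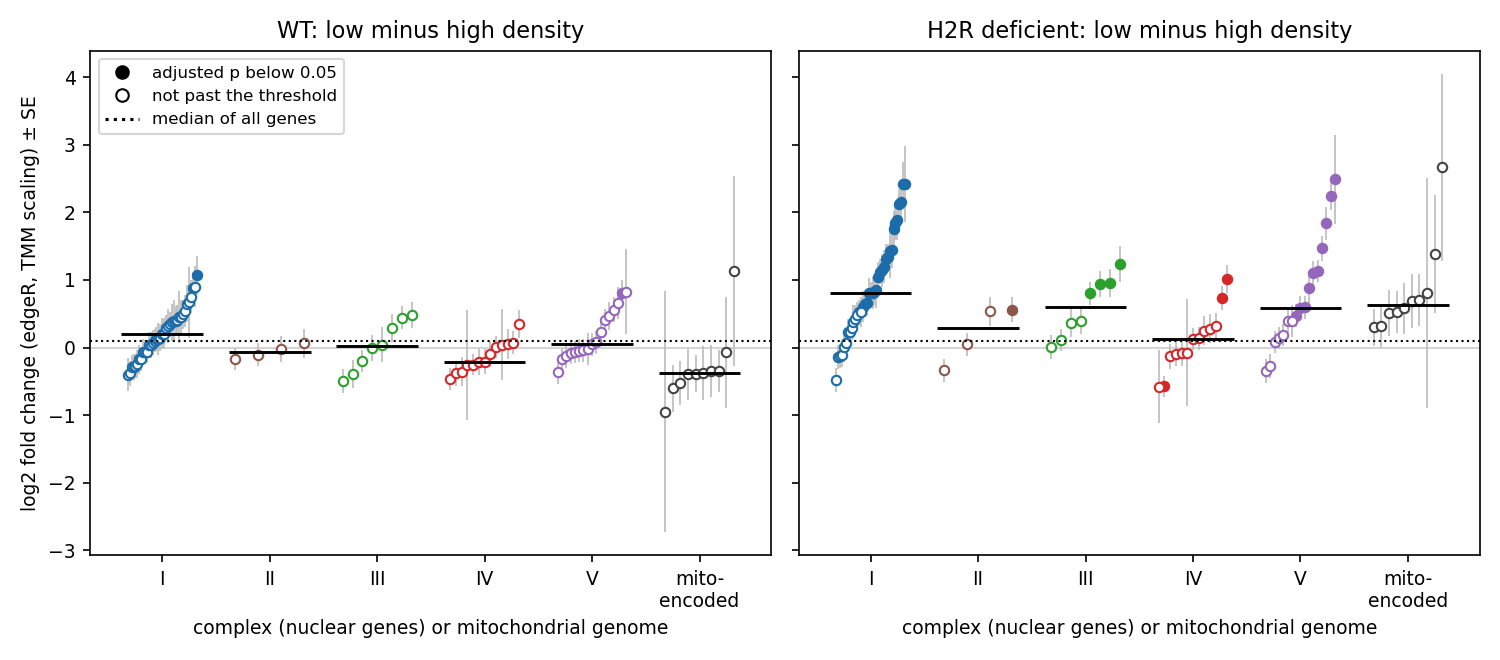
Log2 fold change ± SE (edgeR, TMM scaling) of each tested member between low and high density, for wild-type (left) and H2R-deficient (right) cells, by complex for nuclear genes and together for mitochondrially encoded genes. Filled points passed the test, the bar is the median of the column and the dotted line the median of all genes (0.10 in both). In H2R-deficient cells the medians of complexes I, III and V (0.80, 0.59 and 0.59) lie above that of complex IV (0.13).

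Complex I held the most called genes. Ndufa9, an accessory subunit of the matrix arm, had the lowest p of the complex. Its level was 2.45 and 3.06 CPM in the H2R-deficient high-density libraries and 11.7 and 12.2 CPM in the low-density libraries (log2 fold change 2.12 ± 0.22, edgeR adjusted p = 0.00024). The groups were far apart relative to the gap within each pair. Ndufc2, an accessory subunit of the membrane arm, went from 0.934 and 1.47 CPM to 6.54 and 6.29 CPM (2.42 ± 0.33, edgeR adjusted p = 0.000566). Ndufs3, a core subunit of the arm that leads to ubiquinone, went from 3.04 and 2.62 CPM to 10.1 and 10.2 CPM (1.84 ± 0.25, edgeR adjusted p = 0.000571). Ndufab1, which is also the acyl carrier protein of mitochondria, went from 2.34 and 2.42 to 9.59 and 11.5 CPM (2.15 ± 0.31). Ndufa5 had the same estimate as Ndufc2 at 2.42, but with an SE of 0.56 and levels of 0.409 and 0.702 CPM at high density, and its call was lost without high-density library 1.

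Of the core subunits of complex I on the NADH side, Ndufv1, which binds NADH and the flavin, rose by 1.19 ± 0.24 on the log2 scale, from 6.42 and 5.87 to 14.2 and 13.9 CPM. Ndufs1, the largest iron-sulfur subunit, stood at 29.4 and 24.1 CPM at high and 28.1 and 28.2 CPM at low density, so the groups overlapped (0.07 ± 0.18, edgeR adjusted p = 0.745). The lowest estimate of the complex was that of Ndufb9, an accessory membrane-arm subunit, at -0.48 ± 0.18, which did not pass (edgeR adjusted p = 0.0506).

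In complex II, Sdha, the flavoprotein that oxidizes succinate, stood at 42.9 and 34.9 CPM at high and 59.0 and 55.7 CPM at low density (0.56 ± 0.19, edgeR adjusted p = 0.0310). This call was lost without either low-density library and without high-density library 2. The iron-sulfur subunit Sdhb (0.05 ± 0.17) and the membrane anchors Sdhc (0.53 ± 0.22) and Sdhd (-0.34 ± 0.17) did not pass, and the estimates of Sdhc and Sdhd had opposite signs.

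In complex III, the core proteins Uqcrc1 and Uqcrc2 rose by 0.80 ± 0.17 and 0.95 ± 0.21 in H2R-deficient cells. Uqcrc1 went from 20.1 and 18.8 to 33.3 and 34.5 CPM. Uqcrc2 went from 18.0 and 12.5 to 28.5 and 30.6 CPM, a wider spread at high density. The small subunits Uqcrb (0.95 ± 0.19) and Uqcr11 (1.24 ± 0.27) also rose. Uqcrfs1, the Rieske iron-sulfur protein (0.39 ± 0.19), and Uqcrh, the hinge protein next to cytochrome c1 (0.01 ± 0.18), did not pass.

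Complex IV had the lowest median of the 5 complexes, 0.03 above that of all genes. Cox5a rose by 0.74 ± 0.18 (14.1 and 13.5 to 23.2 and 22.8 CPM) and Cox7b by 1.01 ± 0.21 (8.64 and 8.81 to 15.3 and 19.8 CPM). Cox8a, the member with the highest level per length of the nuclear genes in wild-type high-density cells (311 TPM, transcripts scaled for gene length), went the other way. Its level was 88.2 and 84.2 CPM at high and 54.3 and 61.3 CPM at low density (-0.58 ± 0.16, edgeR adjusted p = 0.0130). Relative to total counts alone Cox8a had a positive estimate, 0.33, below the 1.0 of all genes, and its fall was called neither there nor without high-density library 1 or low-density library 1. Cox4i1 and Cox5b, which with Cox5a sit around the catalytic core, stood at 65.9 and 62.8 against 66.7 and 73.8 CPM and at 47.5 and 45.3 against 38.4 and 46.4 CPM. Neither passed (0.13 ± 0.16 and -0.13 ± 0.18), and the pairs of Cox5b overlapped.

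Complex IV has isoforms known from particular tissues, compared here as shares of the TPM of a family. Cox4i2, an isoform known from lung, held 5.2 to 14.1% of the Cox4i family. Its level was 1.94 and 5.78 CPM in wild-type high-density, 5.11 and 2.86 in wild-type low-density, 2.39 and 4.59 in H2R-deficient high-density and 2.02 and 2.65 CPM in H2R-deficient low-density libraries, so densities overlapped in both genotypes. Cox7a1, known from heart and skeletal muscle, held 0.39 to 2.8% of the Cox7a family, and Cox6a2, Cox6b2, Cox7b2, Cox8b and Cox8c each held under 1% of theirs. Cox7a2l, a relative known for joining complexes III and IV, held 58.9 to 64.0% of the Cox7a family in 7 libraries and 45% in H2R-deficient high-density library 1.

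Most genes of complex V rose, as did most of complex I. Atp5g2, 1 of 3 genes for the c subunit that forms the rotating ring, had the lowest p of all members. It went from 4.09 and 3.64 to 19.4 and 17.3 CPM (2.24 ± 0.21, edgeR adjusted p = 0.000203). Atp5g1 rose by 1.84 ± 0.24, from 2.74 and 3.83 to 12 and 11.5 CPM, and Atp5g3 by 0.88 ± 0.21, from 14.1 and 16.9 to 27.8 and 29.2 CPM; the call of Atp5g3 was lost without high-density library 1. The 3 genes encode the same mature protein. The share of Atp5g2 in their summed TPM was 32.4 and 26.4% in wild-type high-density, 37.0 and 30.5% in wild-type low-density, 25.7 and 20.3% in H2R-deficient high-density and 43.2 and 39.6% in H2R-deficient low-density libraries. The share was higher at low density in each of the 4 numbered pairs, while the wild-type groups overlapped.

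Of the catalytic head, Atp5a1, the alpha subunit, rose by 1.13 ± 0.16, from 65.3 and 70.5 to 144 and 153 CPM (edgeR adjusted p = 0.000677). Atp5b, the beta subunit that carries the catalytic sites, stood at 217 and 181 CPM at high and 229 and 223 CPM at low density (0.18 ± 0.17, edgeR adjusted p = 0.365). The enzyme holds alpha and beta in equal number, and the difference between their estimates was not tested. Atp5o, the stalk protein OSCP, rose by 1.47 ± 0.19 and the central-stalk subunits Atp5c1 and Atp5d by 0.59 ± 0.17 and 1.10 ± 0.17. The call of Atp5c1 was lost without high-density library 1 or either low-density library. The stalk subunit Atp5f1 (-0.27 ± 0.17) and the membrane subunit Atp5l (-0.35 ± 0.18) had negative estimates and did not pass. Atp5s had the highest estimate of all nuclear members (2.49 ± 0.66), at 0.234 and 0.128 CPM against 0.831 and 1.27 CPM, and its call was lost without high-density library 2 or low-density library 2.

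**Figure D3:**
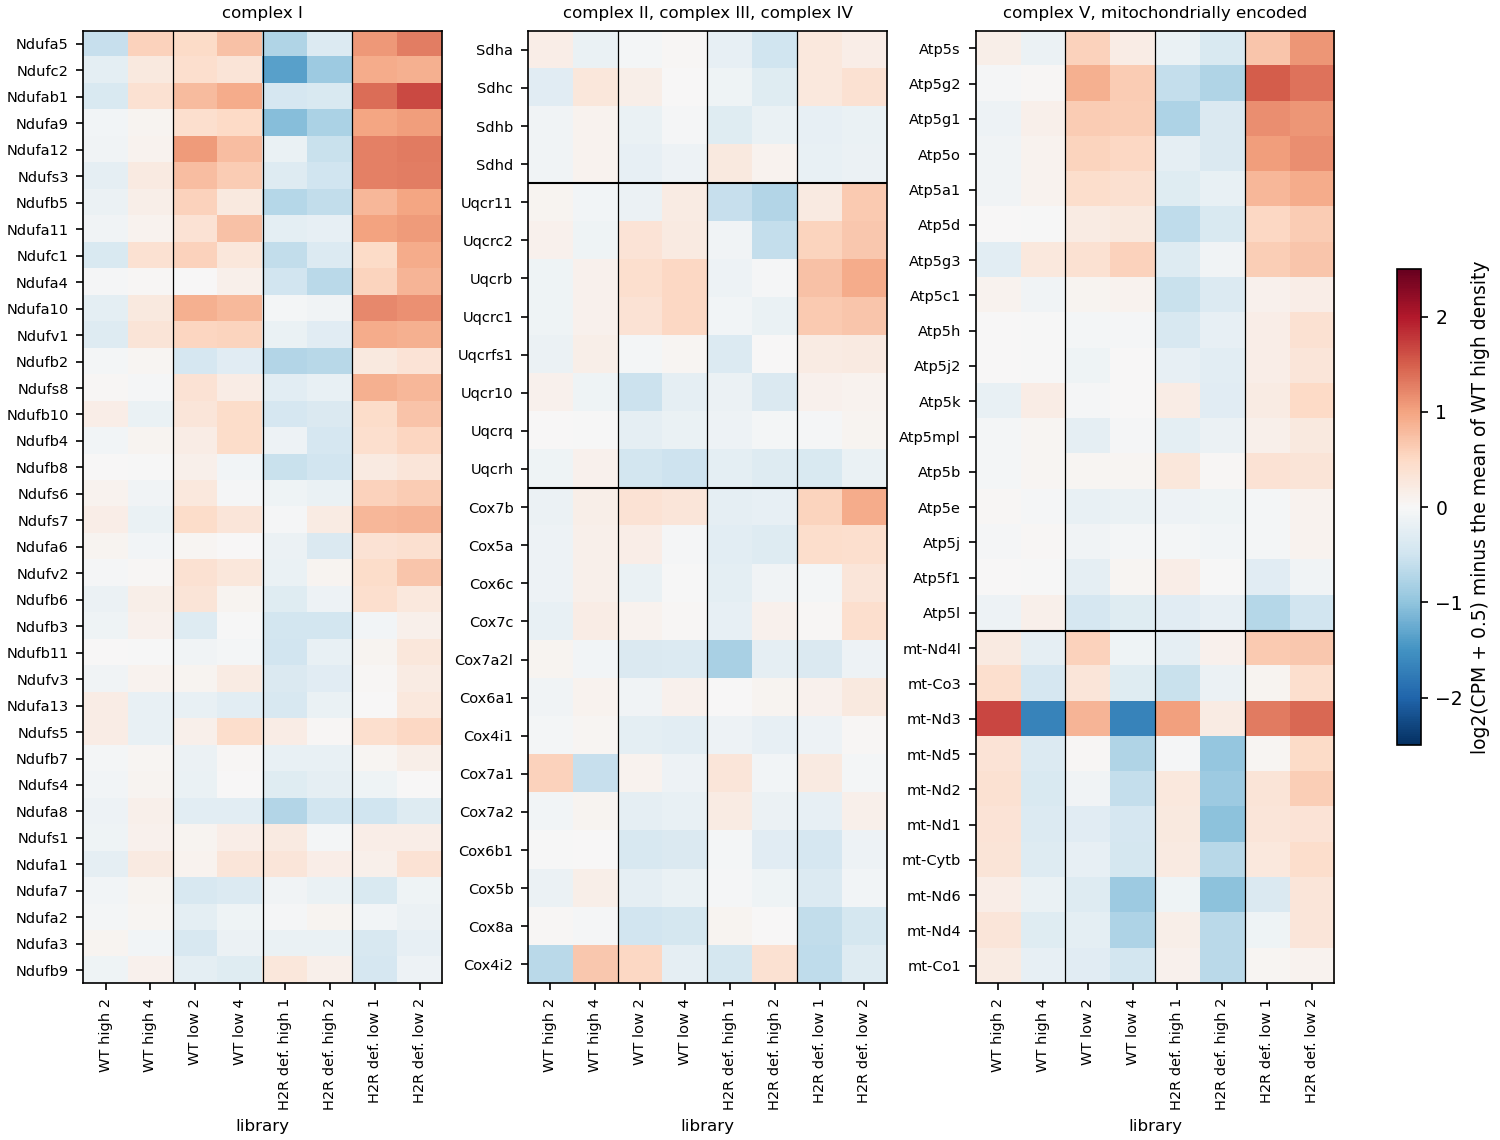
Level of 88 of the 89 tested members in each library, as log2(CPM + 0.5) over TMM-scaled library sizes minus the mean of the wild-type high-density libraries, with nuclear genes ordered within a complex by their density difference in H2R-deficient cells. The upper rows of complexes I and V are high in both H2R-deficient low-density libraries, where Atp5g2 lies at 19.4 and 17.3 CPM. The row of mt-Nd3 is shifted by wild-type high-density library 4, at 0 counts, which enters the mean subtracted.

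In wild-type cells the same comparison called 3 nuclear genes higher and 0 lower by edgeR (DESeq2 2 and 2, limma-voom 2 and 0, and 14 under an unadjusted p of 0.05), where 8.51% of all genes tested were called higher and 4.15% lower. The nuclear median was 0.05, against 0.10 for all genes. Ndufa10, an accessory subunit, stood at 5.13 and 7.50 CPM at high and 12 and 11.3 CPM at low density (0.88 ± 0.22, edgeR adjusted p = 0.0360). Ndufa12, another accessory subunit, stood at 2.06 and 2.36 against 5.19 and 4.11 CPM (1.07 ± 0.29, edgeR adjusted p = 0.0419). Atp5g2 stood at 6.25 and 6.61 against 12.2 and 10.2 CPM (0.80 ± 0.20, edgeR adjusted p = 0.0349). All 3 were among the 41 called in H2R-deficient cells, but both comparisons share 1 fit and 1 spread estimate, so the calls are not independent. No call among them held in every fit that left out 1 library: 0 of the 3 were called without wild-type high-density library 2, wild-type low-density library 2 or 4, or H2R-deficient low-density library 1 or 2, and 1 without wild-type high-density library 4. With the library number as a block, Ndufab1 passed too (0.95, edgeR adjusted p = 0.0494, against 0.90 and 0.0737 without the block).

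By complex, the wild-type medians were 0.20 for complex I, -0.06 for II, 0.02 for III, -0.21 for IV and 0.05 for V. With total counts only, all 5 were positive (0.76, 0.51, 0.58, 0.36 and 0.62) beside 0.67 for all genes, and 37 nuclear genes were called higher and 0 lower, against 32.3% and 0.832% of all genes. Complex IV had the lowest median on both scales. Its share of all nuclear member counts was 24.8 to 25.8% in the 4 high-density libraries, 21.4 and 21.7% in wild-type and 19.5 and 21% in H2R-deficient low-density libraries. The share of complex I was 19.7 to 21.4% in high-density, 22.8% in both wild-type and 23.4 and 23.6% in H2R-deficient low-density libraries. That of complex V was 37.3 to 39.3% in high-density and 39.5 to 40.8% in low-density libraries, a narrow gap. These shares need no scaling between libraries, and low and high density did not overlap in any of them. Shares of complexes II and III overlapped. After TMM scaling B cell markers also rose in wild-type cells (9 of 12), as did 5 of 10 dendritic cell and 7 of 8 dividing-cell markers. Of the mature neutrophil markers 7 of 18 fell (13 of 18 with the library number as a block). Of 10 immature neutrophil markers 6 were tested and 0 called (median 0.77). Of the other lists, 4 of 8 NK cell, 2 of 10 T cell and 1 of 7 eosinophil markers rose, and 5 of 7 erythroid, 3 of 7 eosinophil and 1 of 6 mast cell markers fell. Their part was not tested.

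Over the 79 nuclear genes, the log2 fold changes of wild-type and H2R-deficient cells, which share no library, correlated at r = 0.821 across genes (0.785 over all genes tested). The genes are not independent replicates, and the estimates share the scaling of the libraries. In complex IV of wild-type cells, Cox8a had an estimate of -0.46 ± 0.16 and Cox7b of 0.34 ± 0.21. Neither was called (edgeR adjusted p = 0.0770 and 0.265), and with total counts only Cox8a was at 0.11.

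The density difference was larger for genes of lower level, a relation that the filter on low counts can add to. A gene of low level at high density could pass the filter through its low-density counts alone. Atp5s did so, with 2 to 7 counts at high and 11 to 36 at low density. How much this adds was not tested. Ordered by mean TPM in wild-type high-density cells, which do not enter the H2R-deficient comparison, the 27 nuclear genes with the lowest level (0.441 to 11 TPM) had a median density difference of 1.31 in H2R-deficient cells, with 20 called higher. The next 26 genes (11.6 to 32.5 TPM) had 0.65 with 17 called higher. The 26 with the highest level (32.8 to 311 TPM) had 0.14, with 4 called higher and 1 lower. Across the 79 genes log2 TPM and the difference correlated at r = -0.693, and over all genes tested at -0.577. Gene length correlated with it at r = 0.216.

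**Figure D4:**
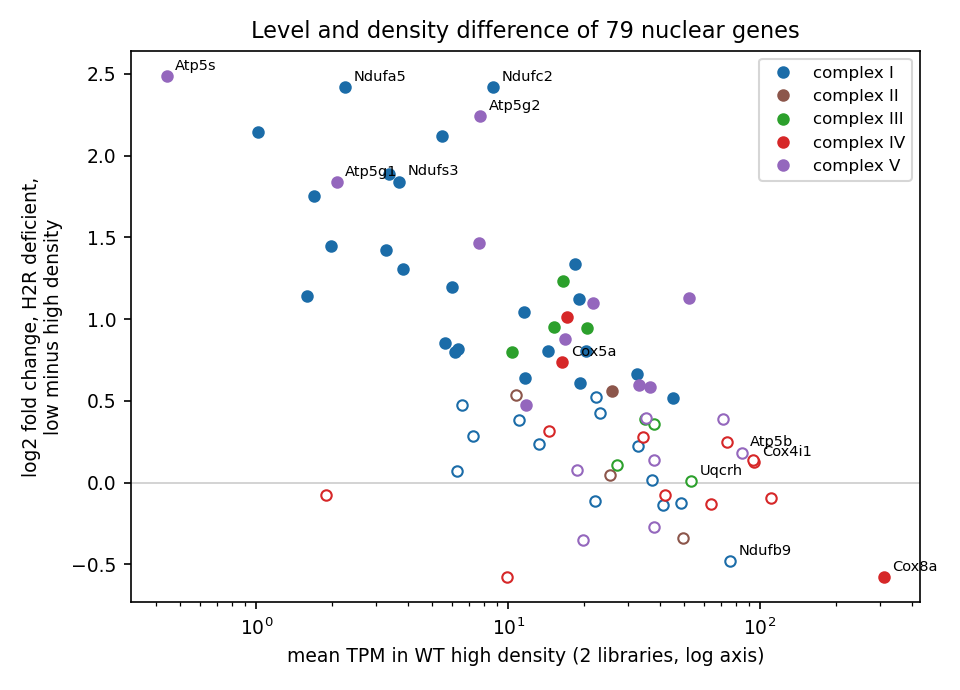
Log2 fold change between low and high density in H2R-deficient cells against the mean TPM in wild-type high-density cells (log axis) for the 79 tested nuclear genes, coloured by complex, with filled points past the test. Genes of low level such as Atp5g1 and Ndufs3 lie high, and Cox8a, at 311 TPM, lies lowest on the right.

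Between genotypes no member was called at either density. At high density 0 of the 89 members tested were called (edgeR), 13 were under an unadjusted p of 0.05, and 0.0201% of all genes were called higher and 0.188% lower. DESeq2 called 2 nuclear members lower there and limma-voom 0. The nuclear median was -0.25 and the median of all genes -0.05. The 3 lowest estimates in complex I were Ndufc2 at -1.44 ± 0.34 (edgeR adjusted p = 0.102), Ndufa9 at -1.05 ± 0.23 (edgeR adjusted p = 0.0937) and Ndufa5 at -1.05 ± 0.59. Ndufa9 stood at 5.36 and 6.02 CPM in wild-type and 2.45 and 3.06 CPM in H2R-deficient high-density libraries, without overlap.

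At low density 0 members and 0% of all genes were called in either direction by edgeR, with 11 nuclear members under an unadjusted p of 0.05. DESeq2 and limma-voom called 0 members. The nuclear median was 0.23 and that of all genes 0.05. Atp5g2 had the lowest p of complex V, with 0.71 ± 0.19 (12.2 and 10.2 CPM in wild-type, 19.4 and 17.3 CPM in H2R-deficient libraries; edgeR adjusted p = 0.116). Cox8a stood at 59.7 and 61.7 against 54.3 and 61.3 CPM (-0.07 ± 0.16).

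Whether the density effect differed between genotypes was tested directly. It called 0 members and 0% of all genes by edgeR, with 24 nuclear members under an unadjusted p of 0.05, and limma-voom called 0 members and DESeq2 7. The nuclear median was 0.51 higher in H2R-deficient cells, beside 0.04 for all genes. Ndufa4, Ndufa9, Ndufb2, Ndufc2 and Atp5g2 shared the lowest adjusted p (edgeR adjusted p = 0.0906), with differences of 1.27 ± 0.27, 1.63 ± 0.31, 1.54 ± 0.35, 2.02 ± 0.45 and 1.44 ± 0.29. With total counts only, 11 nuclear members were called higher (5 of complex I, 1 of III and 5 of V) and 0 lower, where 4.17% and 0.0872% of all genes were called and the median of all genes was 0.38. The larger number of calls in H2R-deficient cells was therefore not shown to be a difference between genotypes after TMM scaling.

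The mitochondrially encoded genes were read unevenly. Of the 13, mt-Co1, the catalytic subunit of complex IV, held 44.5 to 53.4% of the counts (17788 to 67953 counts per library). mt-Cytb, the cytochrome b of complex III, held 5131 to 22944 counts, and mt-Nd1, mt-Nd2, mt-Nd4, mt-Nd5 and mt-Nd6 of complex I between 729 and 20288. The others were close to 0: mt-Nd3 held 0 to 123 counts, mt-Co3 2 to 20, mt-Nd4l 0 to 15, mt-Atp6 1 to 8, mt-Co2 2 to 7 and mt-Atp8 0 to 3. Mitochondrial DNA is transcribed in long precursors from each strand, from which the single messages are cut.

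Of the 6 genes near 0 counts, 5 had a near-identical annotated copy in the nuclear genome. For mt-Atp8 none was annotated, but only annotated transcripts were searched. Its start lies between mt-Co2 and mt-Atp6, whose copies lie at chr1:24614885-24615565 and chr1:24613974-24614651. The stretch between these copies was not searched. In the GENCODE M21 transcripts, 5 genes (mt-Nd3, mt-Nd4l, mt-Co2, mt-Co3 and mt-Atp6) had a copy on chromosome 1 of at least 99% identity over more than 95% of the gene, and these held 0 to 123 counts. mt-Nd4 and mt-Co1 had such a copy over 63.6% and 31.3% of their length and held 1975 to 67953 counts. The 5 genes without such a copy, mt-Atp8 left out, held 729 to 22944. How reads with several mapping places were counted is unstated in the labels and headers. The levels of the 5 genes, mt-Atp8 and the part-copied genes are therefore uncertain, and sums over mitochondrial genes rest on 7 of the 13.

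**Figure D5:**
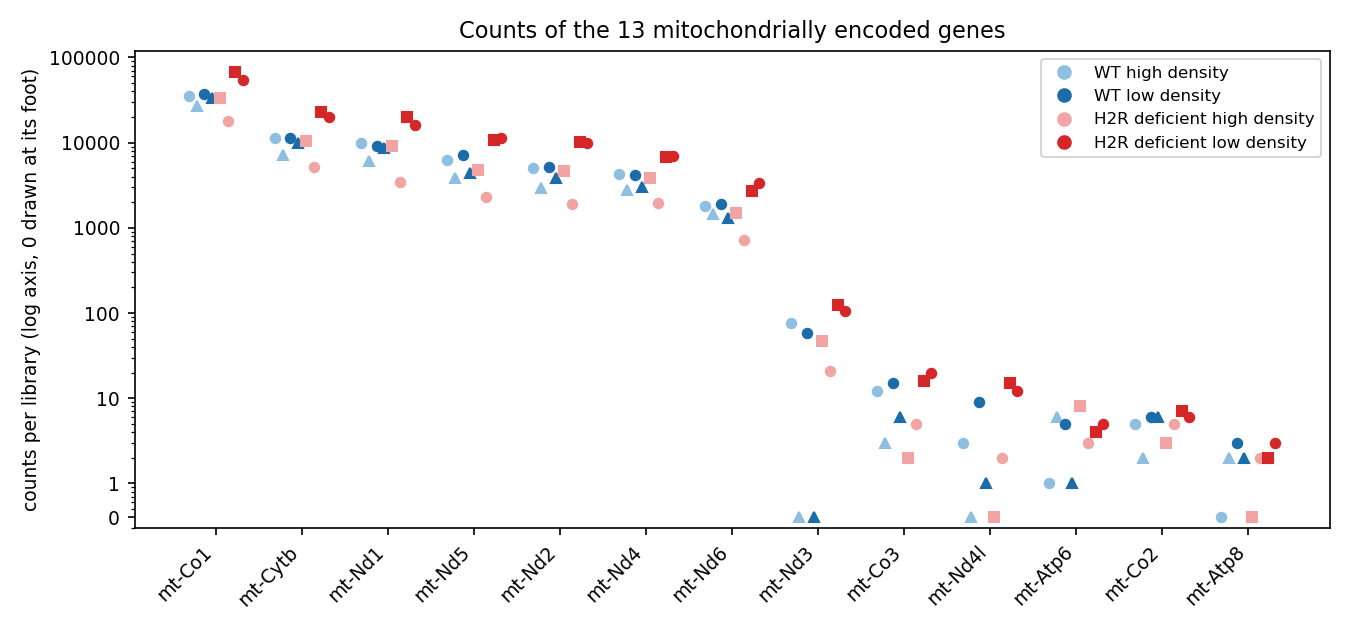
Counts per library of the 13 mitochondrially encoded genes (log axis, 0 drawn at the foot), coloured by group, with squares, circles and triangles for libraries 1, 2 and 4. 7 genes lie above 700 counts in every library and 6 at or below 123, and mt-Nd3 is at 0 in both wild-type libraries numbered 4.

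In wild-type cells the counts of mt-Nd3 split by library number, while in H2R-deficient cells the low-density libraries lay above the high-density ones. Its counts were 77 and 0 in wild-type high-density libraries 2 and 4, 58 and 0 in wild-type low-density libraries 2 and 4, 47 and 21 in H2R-deficient high-density and 123 and 107 in H2R-deficient low-density libraries 1 and 2. Its nuclear copy Gm28438 held 45 and 46 counts in the wild-type libraries numbered 4 and 0, 1, 0, 0, 6 and 2 in the other 6. The gene and its copy differ at 1 of 345 aligned bases, T3C, counted from the first base of the gene, with the gene's base first. mt-Nd3 (ENSMUSG00000064360) lies at MT:9459-9806 on the plus strand and Gm28438 (ENSMUSG00000101939) at chr1:24612775-24613119 on the minus strand of GRCm38. The first 60 bases of both, 5′ to 3′, are shown because they hold the 1 base that differs over the aligned length, in capitals:
mt-Nd3: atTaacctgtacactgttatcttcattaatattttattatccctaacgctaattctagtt
Gm28438: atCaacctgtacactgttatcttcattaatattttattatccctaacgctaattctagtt
The pair of libraries with the counts on the copy shares a number and a genotype, and the cause was not tested. The SE of mt-Nd3 was 1.70 to 1.78 in each single contrast.

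The 7 well-read mitochondrial genes had SE of 0.27 to 0.40 in the density contrasts. mt-Cytb stood at 660 and 425 CPM in wild-type high-density, 460 and 391 in wild-type low-density, 615 and 327 in H2R-deficient high-density, and 636 and 717 CPM in H2R-deficient low-density libraries. mt-Nd1 stood at 577 and 358, 373 and 338, 539 and 222, and 562 and 577 CPM in the same order. mt-Co1 stood at 2091 and 1590, 1502 and 1317, 1976 and 1135, and 1883 and 1940 CPM. In H2R-deficient cells both low-density libraries lay above high density for mt-Nd1, mt-Nd2, mt-Nd5 and mt-Cytb. The gaps were narrow, such as 539 against 562 CPM for mt-Nd1 and 615 against 636 CPM for mt-Cytb. Densities overlapped for mt-Nd4, mt-Nd6 and mt-Co1. In wild-type cells mt-Co1 and mt-Nd6 lay lower at low density without overlap, and the other 5 overlapped. How many of all genes tested lay without overlap was not counted, so these are descriptions of single genes.

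No mitochondrially encoded gene was called in any contrast (edgeR, 10 tested, 0 under an unadjusted p of 0.05 in each; DESeq2 and limma-voom also called 0). The 10 tested include mt-Nd3, mt-Nd4l and mt-Co3, whose levels are uncertain, and they enter the medians and calls below. Of these, mt-Nd4l held 15 and 12 counts in H2R-deficient low-density and 0 to 9 in the other libraries. It could pass the filter through that group alone, so its rise there is no support for a density difference. The density median was -0.38 in wild-type cells and 0.21 with total counts only. It lay -0.47 and -0.46 from that of all genes on these scales. Leaving out high-density library 2 or 4 gave 0.02 or -0.70, and leaving out low-density library 2 or 4 gave -0.80 or -0.20. It was 0.63 in H2R-deficient cells and 1.52 with total counts only, where 9 of the 10 were called higher, against 51.6% of all genes. Without H2R-deficient high-density library 2 this median was 0.18, and without library 1 it was 1.15 with 3 called higher. With the library number as a block mt-Nd2 (0.80, edgeR adjusted p = 0.0396) and mt-Nd5 (0.76, edgeR adjusted p = 0.0378) passed in H2R-deficient cells. Between genotypes the median was -0.28 at high density, but 0.11 without H2R-deficient library 2 and 0.12 without wild-type library 2, and it was -0.75 without H2R-deficient library 1 and -0.64 without wild-type library 4. At low density it was 0.63, with 0.33 to 0.99 when 1 library was left out. The difference of the density effect was 1.06, with 0.51 (without wild-type high-density library 2) to 1.51 (without H2R-deficient high-density library 1). Within complex III of wild-type cells, mt-Cytb was at -0.35 ± 0.31 and nuclear Uqcrc1 at 0.44 ± 0.17, and neither was called.

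Promoters of the nuclear genes were compared by their letters, since many of them rose together. RefSeq sequences (GRCm38.p6) from 250 bases before to 50 after the start were matched for 69 of the 85. They were searched on both strands for letters bound by factors known to act on respiratory genes: GCATGCGC, from the palindrome of NRF1, CCGGAAG, an ETS site as bound by GABP, and AAGATGGC for YY1. The NRF1 letters can overlap with their own reverse complement. They stood in 10 of the 69 (14.5%), against 3.05% of 27025 genes, the ETS letters in 16 (23.2% against 9.93%) and the YY1 letters in 10 (14.5% against 3.19%). At least 1 of the 3 stood in 30 (43.5% against 14.9%). Among the 37 matched genes that rose with low density in H2R-deficient cells, 5 held NRF1, 5 ETS and 6 YY1 letters. Among the 29 tested that did not rise the numbers were 5, 11 and 4. A match is a description of the letters and no evidence of binding.

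The sites below are from the genes with the lowest p for each motif in H2R-deficient cells, from Uqcr11, which holds NRF1 and ETS letters, and from Cox8a, the gene that fell. They are 5′ to 3′ on the gene's strand, which is minus for all 5, with matched letters in capitals. Atp5g2 lies at chr15:102671069-102671096 (49 to 22 bases before the start), Ndufs3 at chr2:90904731-90904758 (37 to 10 before), Ndufa9 at chr6:126849097-126849124 (21 to 48 after), Uqcr11 at chr10:80406812-80406911 and Cox8a at chr19:7217607-7217706 (both 90 before to 10 after):
Atp5g2, NRF1: tccggccGCGCATGCGCagagccttccc
Ndufs3, ETS: ccgcgtccgcCCGGAAGaagagtcactg
Ndufa9, YY1: ttgtgggagAAGATGGCggccgccgtcc
Uqcr11, ETS and NRF1: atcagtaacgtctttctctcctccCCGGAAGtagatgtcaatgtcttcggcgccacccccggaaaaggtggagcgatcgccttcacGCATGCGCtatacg
Cox8a, ETS: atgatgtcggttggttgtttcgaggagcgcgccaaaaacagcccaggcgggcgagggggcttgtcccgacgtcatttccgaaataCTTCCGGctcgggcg
Atp5g2, with the lowest p, and Cox8a, the only member called lower, held different letters, but 2 genes cannot relate letters to direction. ETS letters stood in genes that rose (Ndufs3, Uqcr11) and in the one that fell. They stood in 13.5% of the matched genes that rose and 37.9% of those tested that did not, a difference that was not tested. Further ETS letters of Ndufs3 and Cox8a, from bases 2 and 33 after the start, lie outside the stretches shown.

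Genes that serve the complexes were taken from 6 lists, to be read against the shares of all genes called higher and lower: 30.0% and 23.9% in H2R-deficient and 8.51% and 4.15% in wild-type cells. Among H2R-deficient cells, 23 of 48 assembly factors were higher and 5 lower at low density (median 0.95). In wild-type cells 3 rose and 1 fell, which is near the shares of all genes. With total counts only, none of the 6 lists had a lower call in either genotype. Those that rose included Cox10 (2.92 ± 0.40), which acts in heme A synthesis for complex IV, the complex I factors Ndufaf4 (2.82 ± 0.42) and Acad9 (1.94 ± 0.30), and Atpaf2 of complex V (2.24 ± 0.30). The copper chaperone Cox17 fell (-0.97 ± 0.19), as did Timmdc1 of complex I, which was lower in wild-type cells too (-1.05 ± 0.22 and -0.80 ± 0.22). With total counts only Cox17 was at -0.07 and Timmdc1 at -0.14 in H2R-deficient cells, not called.

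Of 18 electron carrier genes, 11 rose and 1 fell in H2R-deficient cells (median 1.37), against 30.0% and 23.9% of all genes. In wild-type cells 1 rose and 2 fell. Cyc1, the cytochrome c1 of complex III, stood at 4.2 and 7.08 against 14.2 and 16.7 CPM (1.45 ± 0.26, edgeR adjusted p = 0.00196). Etfa, which feeds electrons from fatty acid oxidation, rose in both genotypes (wild type 0.84 ± 0.21, H2R deficiency 1.43 ± 0.21). Of 16 genes of the tricarboxylic acid cycle and pyruvate dehydrogenase, 10 rose and 1 fell in H2R-deficient cells, among them Fh1, the fumarase that follows complex II in the cycle (3.14 ± 0.33), and 4 rose in wild-type cells. Of 9 carriers and related proteins 3 rose and 2 fell in H2R-deficient cells, close to the shares of all genes (30.0% and 23.9%), with the ADP/ATP carriers Slc25a4 (2.94 ± 0.36) and Slc25a5 (0.94 ± 0.16) among the rises.

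Of 18 genes that maintain and transcribe mitochondrial DNA, 11 rose and 2 fell in H2R-deficient cells (median 1.42), where 30.0% and 23.9% of all genes did. In wild-type cells 5 rose and 0 fell, where 8.51% and 4.15% of all genes did. Polrmt, the mitochondrial RNA polymerase, stood at 1.28 and 1.08 against 6.95 and 8.31 CPM in H2R-deficient cells (2.68 ± 0.34) and at 1.59 and 1.89 against 5.55 and 3.29 CPM in wild-type cells (1.34 ± 0.33, edgeR adjusted p = 0.0331). Tfam, which packs mitochondrial DNA and starts its transcription, rose by 2.57 ± 0.36 and 1.47 ± 0.35. Polg, the catalytic subunit of the DNA polymerase, and its partner Polg2 fell in H2R-deficient cells (-0.55 ± 0.17 and -1.22 ± 0.26), but with total counts only Polg was at 0.35 and Polg2 at -0.33, not called.

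Of 11 regulators of mitochondrial genes, 2 rose and 6 fell in H2R-deficient cells (5 with the library number as a block), beside 30.0% and 23.9% of all genes. Those that rose were Myc (2.10 ± 0.25) and the coactivator Pprc1 (2.11 ± 0.32), both also higher in wild-type cells (1.64 ± 0.25 and 1.23 ± 0.31) and with total counts only. Those that fell after TMM scaling were Nrf1 (-0.81 ± 0.23), Gabpa (-0.46 ± 0.17), Gabpb1 (-1.24 ± 0.17), Yy1 (-0.66 ± 0.17), Esrra (-0.67 ± 0.17) and Tfe3 (-1.25 ± 0.17), and none of these 6 was called with total counts only, where Nrf1, Gabpa, Yy1 and Esrra had positive estimates of 0.09 to 0.45.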

How the data were processed

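RNA of 8 libraries was sequenced by the submitters. The authors deposited unnormalized counts of reads for each gene, with coordinates and gene lengths, in featureCounts format per the file headers. Per the submitters' processing notes, the build was GRCm38 and the tools were STAR 2.5.2b, Subread 1.5.2, Trimmomatic 0.36 and bcl2fastq 2.17.1.14. The sources used here do not give the strand setting, multi-mapping rule or annotation release. Reads of overlapping genes and of near-identical copies may be lost or misplaced.

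Symbols came from GENCODE M21 (49056 of 49315 identifiers matched). Genes were kept with filterByExpr by group, scaled by TMM and fitted with edgeR's quasi-likelihood model (edgeR 4.0.16, R 4.3.3, robust dispersion, 1 mean per group, 8 libraries, 4 residual degrees of freedom), with Benjamini-Hochberg adjustment over 14909 genes. TPM were computed from counts and the file's gene lengths. Values with ± are log2 fold changes and SE. With 2 libraries a group no exact test of 1 value could pass 0.05. No batch is given in the labels.

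Libraries of a number deviated together (r = 0.175 for wild type and 0.305 for H2R deficiency over 14909 genes). With 2 libraries a group both pairs give 1 value. The reported fit does not use this pairing. A fit with the numbers as pairs within a genotype (the block) was an alternative. Others were size factors of DESeq2's kind (RLE), total counts only, no filter, DESeq2 1.42.0, limma-voom (limma 3.58.1), each library left out, and only the 2 groups compared. Members and lists were chosen with earlier results of these data known. Genes named were all mitochondrially encoded members, fixed core subunits and paralogs, members with few counts, and, per contrast and complex, up to 3 called genes a direction with the lowest p and the highest and lowest estimates. Further genes, among them Ndufab1, Ndufa4 and the genes of the 6 lists, were picked after their values were seen. Copies of mitochondrial genes were sought with blastn 2.17.0 (at least 100 aligned bases). The values of 1 member are not reported here on their own, though it is part of the counts and medians.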

Additional observations from a re-analysis of the deposited data

How the results depend on the processing

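The H2R-deficient density result kept its direction in every alternative: 28 to 46 nuclear members were called higher, but 75 with total counts only. The range over fits that left out 1 library was 28 to 42, and 26 of the 42 calls held in all 8. A left-out library leaves a group with 1, which is assumed to vary like the others. The single lower call became 2 with DESeq2, RLE size factors and limma-voom, 0 with no filter or total counts only, and 0 to 1 with a library left out. In wild-type cells the 3 calls became 0 with only the 2 groups compared, 37 with total counts only and 0 to 3 with a library left out, and DESeq2 called 2 lower. Mitochondrially encoded genes called higher in H2R-deficient cells were 5 with no filter, 1 with only the 2 groups compared, 2 with the replicate block, 9 with total counts only and 0 to 3 with a library left out. At high density DESeq2 and the fit with no filter called 2 nuclear members lower between genotypes, and at low density no filter called 3 mitochondrial genes higher. For the difference of the density effect DESeq2 called 7, no filter 5 and total counts only 11 nuclear members higher, and no filter 4 mitochondrial genes. With total counts only, all 79 nuclear estimates were above 0 for either genotype, against 45 (wild type) and 66 (H2R deficiency) after TMM. Among named genes called with either scaling the turned values were Sdhd 0.57, Cox5b 0.77, Cox6b1 0.80, Cox7a2 0.82, Cox8a 0.33, Atp5f1 0.63 and Atp5l 0.55 in H2R-deficient cells, each below the 1.0 of all genes. Beyond the calls named here and in the report, the replicate block lost Ndufb11, Ndufb6 and Atp5j2 in H2R-deficient cells and changed no other call of a member. It was not possible between genotypes, which share 1 library number. The causes were not tested. Counts of all genes moved by over 1.5 times too. Higher and lower were 1291 and 1426 with DESeq2, 2190 and 1171 with no filter and 443 and 165 with only the 2 groups compared for wild-type density (1269 and 619 as reported). Leaving out high-density library 2 gave 86 and 37, low-density library 2 gave 205 and 18, and low-density library 4 gave 696 and 118. Between genotypes they were 278 and 399 with DESeq2 and 332 and 763 with no filter at high density, and 367 and 503, and 631 and 729, at low density. For the difference of the density effect they were 588 and 358, and 901 and 309. Cox6a2, Cox6b2, Cox7b2, Cox8b, Cox8c, Ndufa4l2 and 6 mitochondrial genes held few counts in every library.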
